A study of Saccharomyces cerevisiae with 8 samples.

Results

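The genes described here encode factors of ribosome biogenesis in budding yeast, Saccharomyces cerevisiae. They were chosen by name: the members are the genes whose probe sets carry a single gene symbol made of UTP, NOP, RRP, NSA or RLP and digits only. These were 56 of the 5580 named genes on the array, read by 68 of 8330 probe sets. RNA of cultures grown to log phase, with MMS where so labelled, had been read on 8 arrays with 1 colour each, in 4 groups of 2: sgs1 null yeast with methyl methanesulfonate (MMS), untreated sgs1 null yeast, wild type with MMS, and untreated wild type. MMS is an alkylating agent that damages DNA, and SGS1 encodes a RecQ-family DNA helicase. No source used here gives the dose or time of MMS or the strain background. Whether both arrays of a group stem from different cultures is not stated either, and the p-values below then cover the spread between arrays alone, which may be technical. One array of each group carries the word rep in its label and is given second below.

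Ribosomes are built in the nucleolus from a long precursor RNA made by RNA polymerase I. UTP proteins and their partners assemble on the nascent transcript as the small-subunit processome, together with the U3 small nucleolar ribonucleoprotein, while another set of NOP, RRP, NSA and RLP proteins forms the precursors of the large subunit, and the exosome, which contains several RRP proteins, trims and degrades RNA from its 3′ end. In growing yeast these genes are known to be transcribed together and to follow nutrient supply and growth rate, falling in many stresses.

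The strain label was checked with SGS1, which lay below the lower limit of 97.1 set on intensities on all 4 sgs1 null arrays and between 354 and 882 on the wild-type arrays. Values are intensities after quantile normalization, raised to that limit where lower, and changes are log2 differences ± standard error from limma, with p-values adjusted over 7641 features and a threshold of 0.05. In a culture, less RNA per cell and a change in the mix of cells cannot be told apart. Of the 68 member probe sets, 7 were below the limit on at least 1 array and 1 of them, of UTP20, on all 8. The deposited array means lay between 1906 and 2000 and the medians between 775 and 972. With 2 arrays a group, precision is low.

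The members shifted together from array to array, also between the arrays of 1 group. The second array minus the first gave a member median of -0.36 in MMS-treated sgs1 null, 0.12 in untreated sgs1 null, -0.26 in MMS-treated wild type and -0.26 in untreated wild type, where the median of all features was 0 in each group. In the same order, the second array was the higher for 13, 37, 16 and 18 of the 56 genes. Except in untreated sgs1 null, these shifts were at least as large as the member medians of every comparison below. Those medians ran from 0.063 to 0.20. The shifts are differences of single arrays, while the comparisons use means of arrays, which vary less, so the sizes are not like for like. The pooled SD between arrays of a group of the members' median deviation was 0.194. Gaps over 1 between the arrays of a group were seen for 2 genes in MMS-treated sgs1 null, 2 in untreated sgs1 null, 6 in MMS-treated wild type and 3 in untreated wild type. The widest were those of NOP58 in untreated sgs1 null (1.44) and RRP14 in untreated wild type (-1.43). The part of this array-to-array shift in the comparisons was not tested.

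**Figure D1:**
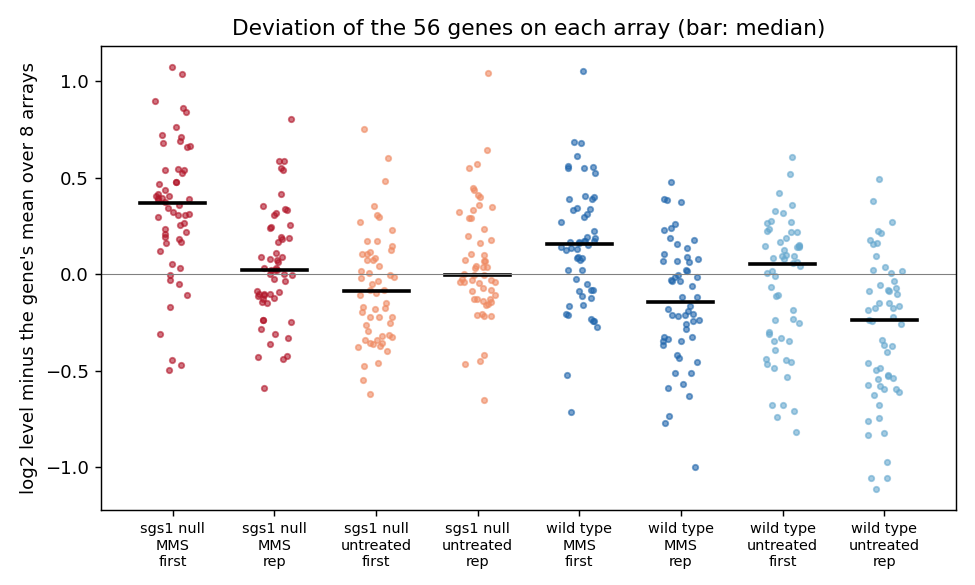
Deviation of each of the 56 genes from its own mean over the 8 arrays (log2, vertical axis) by array; points are genes and bars are medians. The medians run from 0.37 on the first MMS-treated sgs1 null array to -0.24 on the second array of untreated wild type, and the arrays of a group differ in 4 of 4 groups.

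Few of the genes passed the test with MMS. Averaged over strains, the median change of all features was 0.0032, with 50.3% above 0. That of the 56 genes was 0.17, with 39 above 0 and 17 below. With 1 array left out that median ran from 0.079 to 0.31 and the number above 0 from 33 to 42. It moved by over 1.5 times on leaving out the second array of MMS-treated sgs1 null (0.31) or any of the wild-type arrays, with 0.079 and 0.27 for the MMS-treated and 0.27 and 0.11 for the untreated ones. The test called 5 members: NOP7, RRP40, RRP12 and NSA1 rose and NOP56 fell. That is 8.93% of the members, against 15.6% of all features called in either direction (8.78% higher and 6.78% lower). An unadjusted p under 0.05 was seen for 16 members (31.7% of all features). In the sgs1 null strain alone limma called 0 of 56 (2.51% of all features, 1.43% higher and 1.09% lower), with an unadjusted p under 0.05 for 11 of the 56 genes (20.2% of all features). In wild type alone it called NSA1 only (6.35% of all features, 3.42% higher and 2.93% lower), with an unadjusted p under 0.05 for 9 of 56 (24.6% of all features). The MMS-treated and untreated arrays did not overlap for 12 of the 56 genes higher and 2 lower in both strains (15.2% and 13.4% of all features). Within the sgs1 null strain the arrays were apart for 19 genes higher and 5 lower (23.6% and 20.9% of all features), and within wild type for 18 higher and 8 lower (26.4% and 24.7% of all features). These shares are 33.9% and 8.93% of the members in sgs1 null and 32.1% and 14.3% in wild type. The count of calls moved with single arrays: the averaged count of 5 became 0 when the first MMS-treated array of either strain or the second untreated sgs1 null array was left out, 2 (RRP12 and UTP21) when the second MMS-treated sgs1 null array was left out, and 1 when any of the other 4 was.

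**Figure D2:**
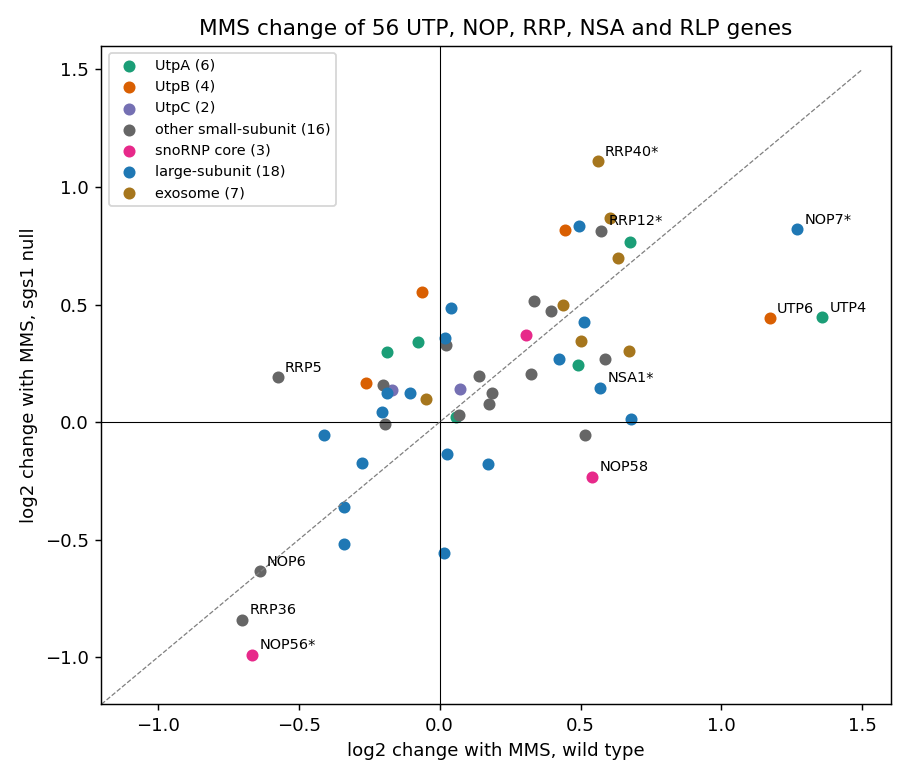
Log2 change with MMS in sgs1 null (vertical axis) against wild type (horizontal axis) for the 56 genes, coloured by role; the dashed line marks equal changes and asterisks mark the 5 genes called on average over strains. NOP56 lies at -0.99 and -0.66 at the lower left, NOP7 at 0.82 and 1.27 and RRP40 at 1.11 and 0.56 at the upper right.

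Among the small-subunit factors, 6 members chosen by name belong to the UtpA complex. This complex binds the start of the precursor RNA and is known to be needed for its transcription. Subunits with other names are not counted here. Of the 6 members, 0 were called in any comparison, beside 15.6% of all features with MMS averaged over strains. Their median in that comparison was 0.25, and 6 of 6 lay above 0 (50.3% of all features). UTP4 read 731 and 322 in MMS-treated sgs1 null and 249 and 509 in untreated sgs1 null, and 721 and 299 in MMS-treated wild type and 197 and 167 in untreated wild type. The highest UTP4 values fell on the first array of both MMS groups and on the second untreated sgs1 null array, and the strain and treatment groups overlapped except in wild type with and without MMS and between the untreated strains. Its change was 1.36 ± 0.65 (adjusted p = 0.282) in wild type, 0.45 ± 0.65 (adjusted p = 0.798) in sgs1 null and 0.90 ± 0.46 (adjusted p = 0.256) on average. UTP8, which is also known for a role in tRNA export, gave 0.77 ± 0.27 in sgs1 null and 0.67 ± 0.27 in wild type, with no overlap in either strain, and an average that missed the threshold (0.72 ± 0.19, adjusted p = 0.0661). UTP15 read 1535 and 1964 in MMS-treated sgs1 null and 1274 and 1560.4 in untreated sgs1 null, and 1352 and 1690.0 in MMS-treated wild type and 1594 and 1855 in untreated wild type, so that its groups overlapped with and without MMS. UTP5 read 1183 and 2129 in MMS-treated sgs1 null and 1322 and 1848 in untreated sgs1 null, and 1354 and 1432 in MMS-treated wild type and 1291 and 1384 in untreated wild type. UTP10 read 1078 and 1410.2 in MMS-treated sgs1 null and 1085 and 872 in untreated sgs1 null, and 587 and 1152 in MMS-treated wild type and 600.4 and 1251 in untreated wild type. For UTP10 the second wild-type array exceeded the first by a larger factor than any treatment difference, and its average change with MMS was 0.13 ± 0.34. UTP9 had 0.37 ± 0.29.

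The UtpB complex is a scaffold made mostly of WD-repeat proteins that joins U3 to the precursor. The members chosen by name include 4 of its subunits, and those with other names are not counted. Of these 4, 0 were called (15.6% of all features with MMS averaged over strains), and their median was 0.44 on average. UTP6 read 1331 and 769 in MMS-treated sgs1 null and 707 and 784 in untreated sgs1 null, and 1207 and 1147 in MMS-treated wild type and 649.8 and 419 in untreated wild type. UTP6, a protein of helical repeats, separated the wild-type groups by 1.17 ± 0.33 and had 0.44 ± 0.33 in sgs1 null, where the groups overlapped (average 0.81 ± 0.23, adjusted p = 0.0842). UTP21 read 2453 and 1489 in MMS-treated sgs1 null and 1062 and 1111 in untreated sgs1 null, and 1273 and 1056 in MMS-treated wild type and 881 and 823 in untreated wild type. UTP21 did not overlap in either strain, at 0.82 ± 0.25 in sgs1 null and 0.45 ± 0.25 in wild type (average 0.63 ± 0.18, adjusted p = 0.081). UTP18 read 2746 and 2011 in MMS-treated sgs1 null and 1582 and 1624 in untreated sgs1 null, and 1684 and 1913 in MMS-treated wild type and 1605 and 2191 in untreated wild type. It stood apart in sgs1 null (0.55 ± 0.22, adjusted p = 0.258) and overlapped in wild type. UTP13 had -0.046 ± 0.083.

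UtpC was read through UTP22 and RRP7. RRP7 read 2011 and 1265 in MMS-treated sgs1 null and 1329 and 1576 in untreated sgs1 null, and 2128 and 1499 in MMS-treated wild type and 1967 and 1466 in untreated wild type, giving 0.11 ± 0.22 with MMS. UTP22 read 228 and 245 in MMS-treated sgs1 null and 193 and 238 in untreated sgs1 null, and 231 and 273 in MMS-treated wild type and 270.1 and 295 in untreated wild type, giving -0.015 ± 0.11. Its 5 probe sets disagreed, as described below.

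A further 16 small-subunit genes had a median of 0.16 with MMS averaged over strains, with 11 above 0. The test called 1 of them (6.25%, beside 15.6% of all features), RRP12. It encodes a repeat protein that escorts both precursors out of the nucleus. RRP12 read 1170.4 and 944 in MMS-treated sgs1 null and 646 and 553 in untreated sgs1 null, and 810.5 and 874 in MMS-treated wild type and 511 and 626 in untreated wild type. MMS-treated and untreated arrays were apart in both strains. The group means were 1057 ± 159.9 with MMS and 599.6 ± 65.4 untreated in sgs1 null, and 842 ± 45.1 with MMS and 569 ± 81.1 untreated in wild type (SD, n = 2 each). The averaged rise was 0.69 ± 0.12 (adjusted p = 0.0247), or 1.62-fold, with a 95% interval of 0.39 to 1.00 on the log2 scale. The call was lost without any 1 of 7 arrays and kept without the second MMS-treated sgs1 null array. RRP9, the WD-repeat protein of the U3 particle, was apart in both strains too, with an average of 0.43 ± 0.12 (adjusted p = 0.0723), as was NOP9, an RNA-binding protein of pumilio-like repeats, with 0.43 ± 0.10 (adjusted p = 0.0515).

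The lowest values of this group were those of RRP36 and NOP6, both small-subunit processome proteins. RRP36 read 503 and 629 in MMS-treated sgs1 null and 1156 and 879 in untreated sgs1 null, and 696 and 343 in MMS-treated wild type and 918 and 688 in untreated wild type. Its change was -0.84 ± 0.39 in sgs1 null, where the groups were apart, -0.70 ± 0.39 in wild type, where they overlapped, and -0.77 ± 0.28 (adjusted p = 0.132) on average. NOP6 read 1115 and 943 in MMS-treated sgs1 null and 1699.9 and 1489 in untreated sgs1 null, and 946 and 655 in MMS-treated wild type and 1408 and 1067 in untreated wild type. NOP6 was lower with MMS on all arrays of both strains (-0.63 ± 0.24 in sgs1 null, -0.64 ± 0.24 in wild type), but the average missed the threshold (-0.64 ± 0.17, adjusted p = 0.0692). RRP5, a large RNA-binding protein needed for both subunits, had 0.19 ± 0.22 in sgs1 null and -0.58 ± 0.22 in wild type. RRP5 read 1025 and 723 in MMS-treated sgs1 null and 841 and 677 in untreated sgs1 null, and 678 and 572 in MMS-treated wild type and 974 and 883 in untreated wild type. The wild-type groups were apart and the sgs1 null groups overlapped. UTP23 read 3123 and 2430.3 in MMS-treated sgs1 null and 2386 and 2396 in untreated sgs1 null, and 3025 and 2071 in MMS-treated wild type and 2496 and 1602 in untreated wild type. RRP3 read 3074 and 1989 in MMS-treated sgs1 null and 2176 and 2365 in untreated sgs1 null, and 2489.7 and 1939 in MMS-treated wild type and 2442 and 1530.1 in untreated wild type. UTP23, a nuclease-like factor, and RRP3, a DEAD-box helicase, both read higher on the first than on the second array in 3 of 4 groups, and neither change passed the test (0.26 ± 0.21 and 0.15 ± 0.23). The others in the group lay between -0.10 for UTP20 and 0.43 for NOP19 on average, with NOP14 at 0.13, UTP7 at 0.05, UTP11 at 0.17, UTP14 at -0.022, UTP25 at 0.23 and UTP30 at 0.18.

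**Figure D3:**
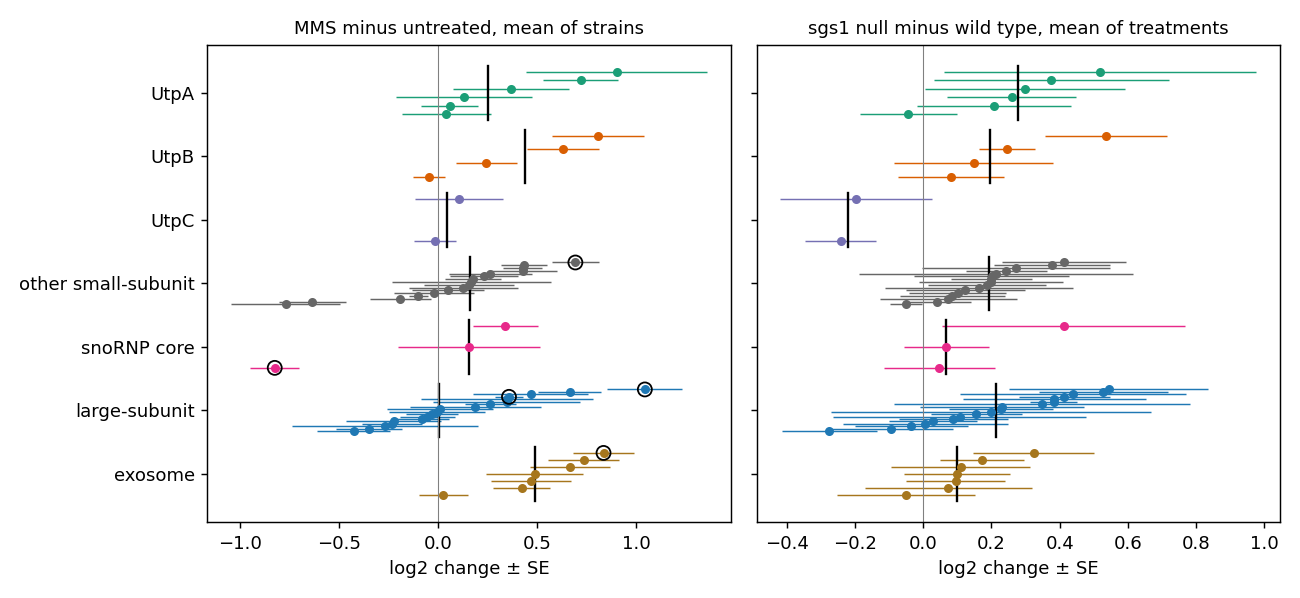
Log2 change ± standard error of each gene by role, for MMS averaged over strains (left) and for sgs1 null against wild type averaged over treatments (right); vertical bars are medians by role and rings mark adjusted p below 0.05. At left, 6 of 7 exosome genes lie above 0.4 and NOP56 lies at -0.83; at right, 48 of 56 genes lie above 0 and 0 are ringed.

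The box C/D small nucleolar particles methylate ribosomal RNA. Of their core proteins, 3 were among the members chosen by name. With MMS averaged over strains, 1 of these 3 was called, beside 15.6% of all features. Core proteins with other names are not counted here. NOP56, which forms the scaffold with NOP58, was the only 1 of the 56 genes called lower. NOP56 read 1506 and 1586 in MMS-treated sgs1 null and 2976 and 3160.0 in untreated sgs1 null, and 1479 and 1840.0 in MMS-treated wild type and 2282 and 2996 in untreated wild type. All 4 MMS-treated arrays lay below all 4 untreated ones. Its means were 1546 ± 56.7 with MMS and 3068 ± 130.4 untreated in sgs1 null, and 1659 ± 255 with MMS and 2639 ± 505 untreated in wild type (SD, n = 2 each). NOP56 fell by 0.83 ± 0.12 on average (adjusted p = 0.0182), with a 95% interval of -1.15 to -0.51, and its values in the strains alone were -0.99 ± 0.18 (adjusted p = 0.0636) in sgs1 null and -0.66 ± 0.18 (adjusted p = 0.0969) in wild type. The call was lost on leaving out any 1 of the 4 sgs1 null arrays or the first array of MMS-treated wild type. NOP1, the methyltransferase of the particle known elsewhere as fibrillarin, had 0.37 ± 0.23 in sgs1 null and 0.31 ± 0.23 in wild type. NOP1 read 4300.2 and 3327 in MMS-treated sgs1 null and 2553 and 3349.9 in untreated sgs1 null, and 3738 and 3427 in MMS-treated wild type and 2491 and 3362 in untreated wild type, so that its sgs1 null groups overlapped and its wild-type groups did not. NOP58 read 3938 and 2845 in MMS-treated sgs1 null and 2386 and 6476 in untreated sgs1 null, and 3860.0 and 2805 in MMS-treated wild type and 2292 and 2229 in untreated wild type, as averages over its 4 probe sets, and was highest on the second untreated sgs1 null array. Its change was 0.15 ± 0.36, over probe sets that gave 0.37 (8244_i_at), 0.78 (8245_r_at), -0.24 (8246_s_at) and -0.28 (8247_at).

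The 18 large-subunit genes had a median of 0.0029 with MMS on average, with 9 above 0 and 9 below. Of the 18, 2 were called, which is 11.1% beside 15.6% of all features. NOP7 encodes a scaffold protein of the complex with ERB1 and YTM1, the yeast counterpart of pescadillo. NOP7 read 343 and 304 in MMS-treated sgs1 null and 228 and 146 in untreated sgs1 null, and 297 and 229.9 in MMS-treated wild type and 121 and 97.1 in untreated wild type. It was dim, and the second untreated wild-type array was at the lower limit. All 4 MMS-treated arrays were above all 4 untreated ones. NOP7 rose by 1.05 ± 0.19 (adjusted p = 0.0277) on average, or 2.06-fold, with 0.82 ± 0.27 (adjusted p = 0.184) in sgs1 null and 1.27 ± 0.27 (adjusted p = 0.0615) in wild type. The averaged size depended on the lower limit, being 0.44 (adjusted p = 0.0591) with the limit at the 20th in place of the 10th percentile, and the call was lost on leaving out any 1 of 7 arrays and kept without the first untreated sgs1 null array. Median centring in place of quantile normalization gave 0.84 (adjusted p = 0.0674).

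NSA1, a WD-repeat protein of early large-subunit precursors, was the only member called within a strain. NSA1 read 1399 and 1548 in MMS-treated sgs1 null and 1291 and 1369 in untreated sgs1 null, and 1379.7 and 1238 in MMS-treated wild type and 887 and 876 in untreated wild type. The untreated wild-type arrays stood below the other 6. In wild type NSA1 rose by 0.57 ± 0.098 (adjusted p = 0.0411), or 1.48-fold, at means of 1309 ± 100.2 with MMS and 881 ± 7.84 untreated (SD, n = 2 each), and in sgs1 null the value was 0.15 ± 0.098 (adjusted p = 0.499). Averaged over strains it rose by 0.36 ± 0.069 (adjusted p = 0.0322), a call lost in each of the 8 fits without 1 array and under the first 3 settings named next. The wild-type call was lost in every fit that left out 1 array, with no lower limit (adjusted p = 0.193), without the dimmest 25% of features (adjusted p = 0.163), with a trended robust variance (adjusted p = 0.111) and with the wild-type groups alone (adjusted p = 0.122).

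Among the other large-subunit genes, NOP12, an RNA-binding protein, was higher with MMS without overlap in both strains. NOP12 read 679 and 502 in MMS-treated sgs1 null and 276 and 389 in untreated sgs1 null, and 513 and 466 in MMS-treated wild type and 334 and 360.1 in untreated wild type. Its change was 0.83 ± 0.23 (adjusted p = 0.132) in sgs1 null and 0.50 ± 0.23 (adjusted p = 0.261) in wild type (average 0.66 ± 0.16, adjusted p = 0.0537). NOP4 read 1614 and 1175 in MMS-treated sgs1 null and 785 and 1341 in untreated sgs1 null, and 1288 and 737 in MMS-treated wild type and 794 and 587 in untreated wild type. NOP4, with several RNA-recognition motifs, overlapped in both strains. At the low end, NOP16 read 1548 and 1283 in MMS-treated sgs1 null and 1904 and 2135 in untreated sgs1 null, and 1847 and 1389.8 in MMS-treated wild type and 2499 and 1643 in untreated wild type. NOP16 lay at -0.43 ± 0.18, RLP24, which resembles a ribosomal protein and holds its place in the precursor, at -0.35 ± 0.17, and RRP14 at -0.27 ± 0.47. NSA2 read 3849 and 2574 in MMS-treated sgs1 null and 3245 and 2566 in untreated sgs1 null, and 2681 and 1848 in MMS-treated wild type and 3175 and 1807 in untreated wild type. NOP15 read 3105 and 2148 in MMS-treated sgs1 null and 2475 and 3427 in untreated sgs1 null, and 2685 and 1682 in MMS-treated wild type and 2949.8 and 2245 in untreated wild type. NSA2 read higher on the first array than on the second in 4 of 4 groups and NOP15 in 3 of 4, and their changes with MMS were 0.0096 ± 0.27 and -0.22 ± 0.24. RRP1 read 1893 and 949 in MMS-treated sgs1 null and 1050.1 and 1044 in untreated sgs1 null, and 1132 and 685 in MMS-treated wild type and 1142 and 660.1 in untreated wild type. NOP8 read 486 and 705 in MMS-treated sgs1 null and 595 and 695 in untreated sgs1 null, and 736 and 763 in MMS-treated wild type and 721 and 752 in untreated wild type. RRP1 had 0.19 ± 0.33 and NOP8 -0.055 ± 0.14. The rest were NOP2, an rRNA methyltransferase (-0.081), NOP13 (-0.23), NOP53 (0.35), RLP7 (0.26), RRP8 (-0.03), RRP15 (-0.0038) and RRP17, an exonuclease (0.35).

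The 7 exosome genes had the highest median of the roles, 0.49 on average, 0.50 in sgs1 null and 0.56 in wild type. All 7 lay above 0 on average, where 50.3% of all features did. The averaged test called 1 of the 7, which is 14.3% beside 15.6% of all features. RRP40 and RRP4 encode RNA-binding subunits that cap the exosome ring. RRP40 read 2905 and 3827 in MMS-treated sgs1 null and 1708 and 1396 in untreated sgs1 null, and 2308 and 2871 in MMS-treated wild type and 1564 and 1945 in untreated wild type. The MMS-treated arrays were above the untreated ones in both strains. The means were 3366 ± 652 with MMS and 1552 ± 221 untreated in sgs1 null, and 2589 ± 398 with MMS and 1754 ± 269 untreated in wild type (SD, n = 2 each). RRP40 rose by 0.84 ± 0.16 (adjusted p = 0.0297) on average, or 1.78-fold, with 1.11 ± 0.22 (adjusted p = 0.0762) in sgs1 null and 0.56 ± 0.22 (adjusted p = 0.205) in wild type, and its call was lost in each of the 8 fits without 1 array. RRP4 read 2496 and 1733 in MMS-treated sgs1 null and 1288 and 1009 in untreated sgs1 null, and 1707 and 1347 in MMS-treated wild type and 1094 and 911 in untreated wild type. RRP4 was apart in both strains and missed the threshold (0.74 ± 0.18, adjusted p = 0.0545), as did RRP6, the nuclear exonuclease (0.67 ± 0.20, adjusted p = 0.0931), and the ring subunit RRP42 (0.42 ± 0.14, adjusted p = 0.121). RRP4 passed on the deposited scale, without the dimmest 25% of features and with a trended robust variance, and RRP42 on the deposited scale. RRP43 had 0.49 ± 0.24 and RRP45 0.47 ± 0.20. The ring subunit RRP46 had the lowest value of the 7, at 0.025 ± 0.12. RRP46 read 4079.9 and 3834 in MMS-treated sgs1 null and 4225 and 3231 in untreated sgs1 null, and 3105 and 3585 in MMS-treated wild type and 3756 and 3167 in untreated wild type, with overlap in both strains. Of 10 other genes of the exosome and its cofactors, the averaged test called 3 higher and 0 lower: DIS3, the catalytic subunit (0.61 ± 0.091, adjusted p = 0.0181), PAP2, a poly(A) polymerase of its cofactor (0.56 ± 0.11, adjusted p = 0.0342), and SKI6, a ring subunit (0.54 ± 0.063, adjusted p = 0.0101), which was also called in sgs1 null alone (0.61 ± 0.089, adjusted p = 0.0452). Over all features the averaged test called 8.78% higher and 6.78% lower. The median of the 10 was 0.50 on average, 0.28 in sgs1 null and 0.47 in wild type. On average 8 of the 10 lay above 0 and 2 below, the lowest at -0.50.

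**Figure D4:**
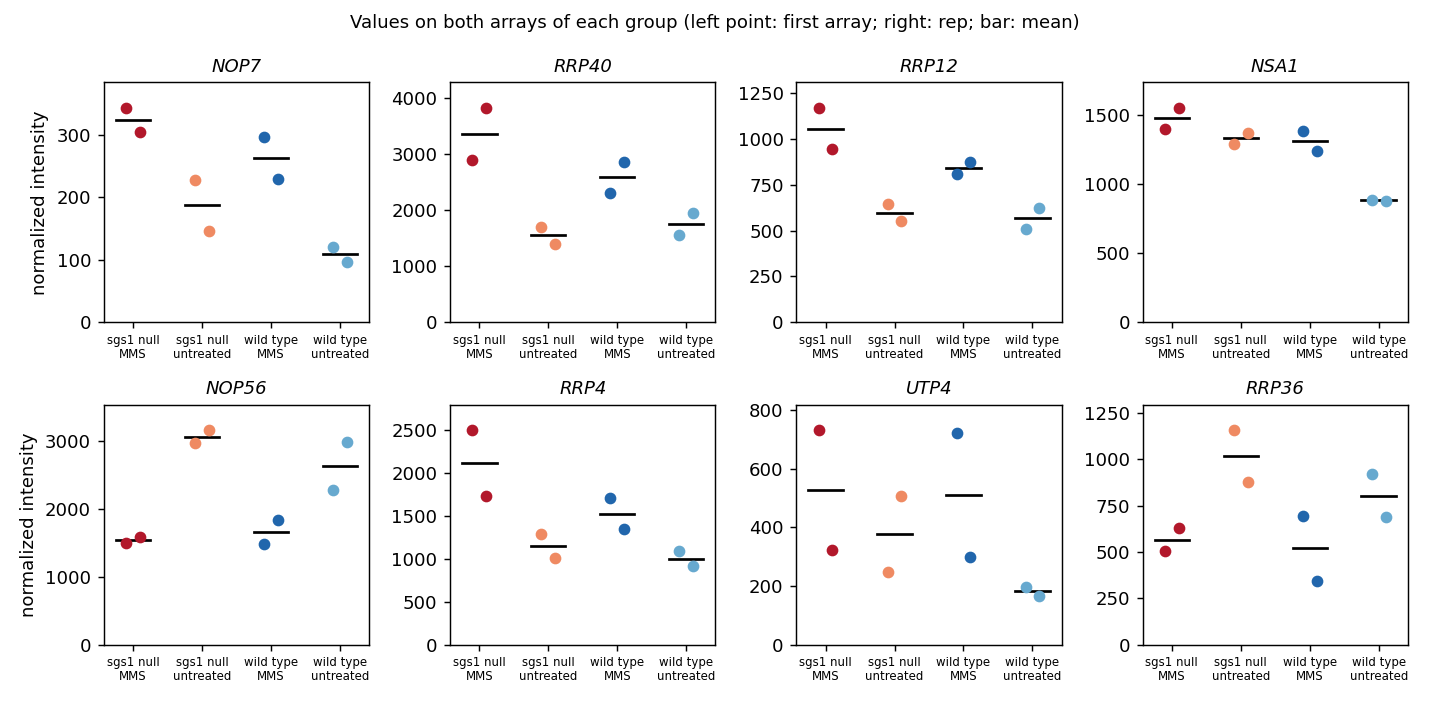
Normalized intensity (vertical axes, from 0) of 8 genes on both arrays of each group; points are arrays and bars are means. NOP56 lies below its untreated arrays on all 4 MMS-treated ones, NSA1 is lowest in untreated wild type, and UTP4 is high on 1 array of each MMS group and on 1 untreated sgs1 null array.

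The strains were compared to ask whether loss of SGS1 moved these genes. Without MMS the median sgs1 null minus wild type difference was 0.18, with 41 of 56 genes above 0, against a median of 0 and 45% above 0 for all features. With MMS the median was 0.20, with 43 of 56 above 0 (47.2% of all features). Averaged over treatments it was 0.18, with 48 of 56 above 0 (46.3% of all features). That average was 0.10 with 35 of 56 above 0 when the first MMS-treated sgs1 null array was left out, 0.27 with 47 above 0 when the second was, and 0.12 with 41 above 0 when the second array of MMS-treated wild type was. The test called 0 members in each of these comparisons, and 0.0262% of all features untreated, 0.0131% with MMS and 0.157% on average (0.118% higher and 0.0393% lower). An unadjusted limma p was under 0.05 for 3, 3 and 5 members (10.5%, 6.18% and 11.2% of all features). The untreated median was not the same on both marks: it was -0.024 between the first arrays and 0.33 between the second ones, and without the second untreated wild-type array it was -0.0092. With MMS the median was 0.19 between the first and 0.17 between the second arrays, but 0.042 with the first array of MMS-treated sgs1 null left out and 0.057 with the second of MMS-treated wild type left out.

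Untreated, the arrays of the strains were apart for 10 genes higher and 5 lower in sgs1 null (19.3% and 19.6% of all features), and with MMS for 18 higher and 1 lower (12.6% and 12.9%). The 4 genes NOP7, NSA1, RRP9 and UTP21 were apart and higher in both conditions and NOP8 was apart and lower in both (4.55% and 4.41% of all features). Untreated, NSA1 had the smallest p of the members, with 0.59 ± 0.098 (adjusted p = 0.187) and a 95% interval of 0.34 to 0.84. It had 0.17 ± 0.098 (adjusted p = 1) with MMS and 0.38 ± 0.069 (adjusted p = 0.171) on average. The largest untreated values were those of UTP4 (0.97 ± 0.65), NOP58 (0.80 ± 0.51) and NOP7 (0.75 ± 0.27), and those of UTP4 and NOP58 came with gaps of over 1 between the untreated sgs1 null arrays. The NOP58 value joins probe sets that gave 2.17, 0.74, 0.17 and 0.11. That of NOP7 ran from 0.058 to 1.16 over the alternative settings other than leaving out 1 array. The lowest untreated values were those of UTP22 (-0.40 ± 0.15), RRP5 (-0.30 ± 0.22) and UTP15 (-0.29 ± 0.20). With MMS the highest were UTP21 (0.72 ± 0.25, adjusted p = 0.738), RRP1 (0.61 ± 0.47) and UTP10 (0.59 ± 0.49), and the lowest NOP8 (-0.36 ± 0.20), UTP6 (-0.22 ± 0.33) and NOP16 (-0.18 ± 0.26). On average NOP4 stood highest, at 0.54 ± 0.29 (adjusted p = 0.593) with a 95% interval of -0.20 to 1.29, and NOP8 lowest, at -0.28 ± 0.14 (adjusted p = 0.56) with -0.63 to 0.082.

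The MMS responses of the strains were then set against each other. The sgs1 null minus wild type difference of responses had a median of 0.063 over the members, with 31 above 0 and 25 below, and it ran from -0.13 to 0.23 over the fits without 1 array. In it limma called 0 of 56, as it called 0 of all 7641 features. An unadjusted p was under 0.05 for 2 members (4.75% of all features), NSA1 (-0.42 ± 0.14, adjusted p = 1) and UTP13 (0.43 ± 0.17, adjusted p = 1). The highest values were those of RRP5 (0.77 ± 0.31), UTP18 (0.62 ± 0.31) and RRP40 (0.55 ± 0.31), and the lowest those of UTP4 (-0.91 ± 0.91), NOP58 (-0.77 ± 0.72) and UTP6 (-0.73 ± 0.47). The 95% interval was -0.027 to 1.56 for RRP5 and -3.26 to 1.44 for UTP4.

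The members with several probe sets were NOP58, UTP20 and UTP22, and their probe sets did not read alike. For NOP58, the probe set 8245_r_at gave 1407 and 328 in MMS-treated sgs1 null, 291 and 2572 in untreated sgs1 null, 1260 and 408 in MMS-treated wild type and 202 and 183 in untreated wild type. The probe set 8247_at gave 2906 and 4420.4 in MMS-treated sgs1 null, 3667 and 5919 in untreated sgs1 null, 3497 and 4099 in MMS-treated wild type and 4424 and 4197 in untreated wild type. The probe set 8245_r_at, like 8244_i_at, was high on 3 arrays of different groups, the same 3 on which UTP4 was high. With MMS in wild type the difference was 1.90 for 8245_r_at and 0.61 for 8244_i_at, against -0.16 for 8246_s_at and -0.19 for 8247_at, so the averaged NOP58 change of 0.54 ± 0.51 joins probe sets of opposite sign. UTP20 had 6 probe sets, 4 of them below the lower limit on at least 3 arrays. Its brightest, 7357_at, gave 0.30 in sgs1 null and 0.24 in wild type with MMS, against averages of -0.0091 and -0.19. UTP22 had 5, of which 4926_at gave -0.075 and 0.20 with MMS, and 0.19 for untreated sgs1 null against wild type, where the average of the probe sets was -0.40.

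**Figure D5:**
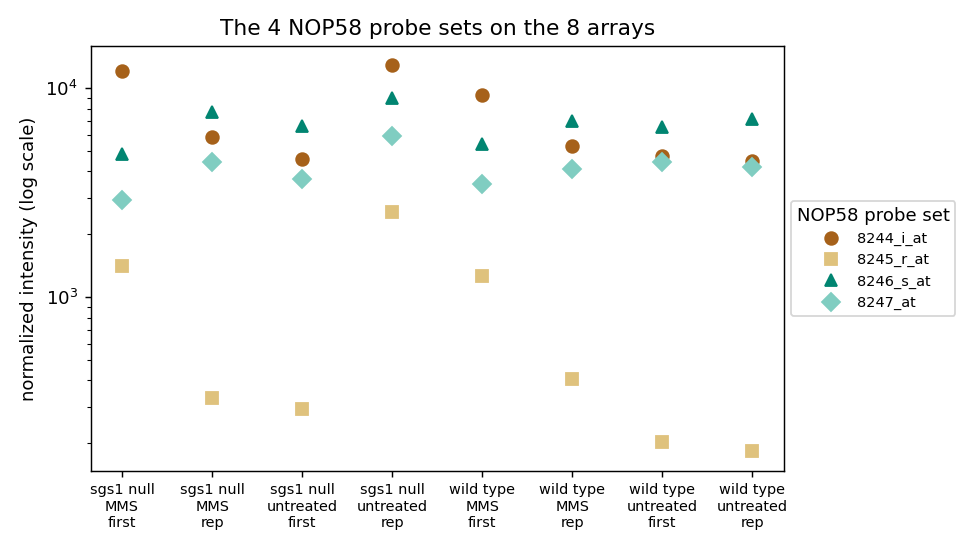
Normalized intensity (log scale) of the 4 NOP58 probe sets on the 8 arrays. The probe sets 8244_i_at and 8245_r_at are high on the first MMS-treated array of both strains and on the second untreated sgs1 null array, whereas 8246_s_at and 8247_at are lower on those first MMS-treated arrays than on the second ones.

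The rest of the ribosome biogenesis pathway was read through 96 further genes. Their medians were 0.29 with MMS in sgs1 null, 0.11 in wild type and 0.20 on average, and the averaged test called 6 higher and 4 lower of the 96, which is 10.4% of them beside 15.6% of all features. The largest of the called changes were those of NOC3, a factor of precursor export (1.15 ± 0.19, adjusted p = 0.023), NPA3, a GTPase known chiefly for nuclear import of RNA polymerase II rather than ribosome assembly (0.99 ± 0.12, adjusted p = 0.0118), RPF1 (0.72 ± 0.16, adjusted p = 0.0466) and ENP2 (0.67 ± 0.11, adjusted p = 0.0239). NPA3 was also the 1 gene called in sgs1 null alone (1.36 ± 0.17, adjusted p = 0.0358), and RIO1, a kinase of late small-subunit maturation, the 1 called in wild type alone, where it fell by 0.64 ± 0.11 (adjusted p = 0.0433). In the strain comparisons 0 of the 96 were called, and 61 of 96 lay above 0 untreated (45% of all features), 80 with MMS (47.2%) and 74 on average (46.3%). Of 14 regulators of the programme, RRN3, the initiation factor of RNA polymerase I, rose with MMS by 1.73 ± 0.32 (adjusted p = 0.0471) in wild type and 1.62 ± 0.22 (adjusted p = 0.0151) on average. RRN3 read 1919 and 1705 in MMS-treated sgs1 null and 839 and 479 in untreated sgs1 null, and 1242 and 1715 in MMS-treated wild type and 481 and 405 in untreated wild type, apart in both strains. IFH1, a coactivator of ribosomal protein genes, fell by 0.61 ± 0.12 on average (adjusted p = 0.034). IFH1 read 778 and 624 in MMS-treated sgs1 null and 1373 and 1333 in untreated sgs1 null, and 523 and 402 in MMS-treated wild type and 548 and 546 in untreated wild type, with the untreated sgs1 null arrays above all others. SFP1, an activator of these genes, had 0.41 ± 0.23, STB3 -0.23 ± 0.47, DOT6 -0.091 ± 0.51 and TOD6 0.30 ± 0.13, the last 3 being repressors that bind their promoters, and none of them passed.

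In the RefSeq gene order of assembly R64, 6 of the 56 members lay next to another gene of these ribosome biogenesis lists (10.7%), against 4.84% of 5850 other protein-coding genes, a difference that was not tested, and 0 pairs joined 2 members. The pair PWP1 and NOP56, in tandem, was the 1 of 6 with both genes called on average with MMS. PWP1, named here as that neighbour, a WD-repeat protein of large-subunit assembly, fell by 0.56 ± 0.11 (adjusted p = 0.0337). PWP1 read 1363 and 1262 in MMS-treated sgs1 null and 2006 and 2008 in untreated sgs1 null, and 1422 and 1106 in MMS-treated wild type and 1939 and 1638 in untreated wild type. NSA2 and LCP5, and RRP3 and SSF1, are divergent pairs, UTP9 and RIX1 and RSA3 and UTP13 tandem ones, and RRP15 and NOC4 convergent. In these 5 pairs 0 genes were called.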

How the data were processed

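The members and the gene lists were chosen with earlier results of these data known. The deposited table holds 1 intensity per probe set and array, on a linear scale. How the authors scaled the intensities or corrected background is not given in the sources used here. Of 8363 probe sets, 32 controls and 1 with a missing value were left out. Arrays were quantile normalized, every value below the 10th percentile of the positive values (97.1) was raised to it, log2 was taken, and probe sets of a gene were averaged, giving 7641 features. Symbols came from the platform annotation, and all 56 members matched the RefSeq table of assembly R64 with 0 symbols changed. Group means over 8 arrays were fitted with limma 3.58.1 in R 4.3.3 (4 residual and 0.986 prior degrees of freedom), with two-sided p-values adjusted over all features by Benjamini-Hochberg. No covariate was used. The steps were run on simulated data with noise drawn independently for each feature and array. Such data lack the shifts shared by many genes of an array, so they cannot show whether the calls hold under those shifts. Same-marked arrays did not deviate together in all pairs of groups (correlations of -0.0751 to 0.667), so the mark was not taken as a pairing. Pairs with untreated sgs1 null ran from -0.0751 to 0.203 over all features and from -0.115 to 0.0948 over the members. The other pairs did deviate together, at 0.359 to 0.667 over all features and 0.537 to 0.78 over the members. Values on every array were given for members past the threshold, the 3 highest and 3 lowest per comparison and up to 2 bright members per role; of other genes, those past the threshold, up to 4 per list and comparison. Other members are given by their averages.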

Additional observations from a re-analysis of the deposited data

Results flagged for a closer look

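For 3 genes the arrays stood apart in opposite directions under the same contrast, while the test of the difference itself did not pass. The share of all features that did so was not counted. In a single comparison, 12.6% to 26.4% of all features stood apart in a given direction, so the 3 genes may be no more than that background. UTP13 read 1435 and 1251 in MMS-treated sgs1 null and 1249.8 and 1138 in untreated sgs1 null, and 1040.3 and 913 in MMS-treated wild type and 1154 and 1180.1 in untreated wild type, so that it was higher with MMS in sgs1 null and lower in wild type. The difference of its responses was 0.43 (adjusted p = 1). RRP5 was lower in sgs1 null than in wild type untreated and higher with MMS, with a difference of 0.77 (adjusted p = 1). UTP20 likewise gave 0.18 (adjusted p = 1), from probe sets of which most were near the lower limit. Its brightest probe set, 7357_at, did not turn, being higher in sgs1 null untreated (0.515) and with MMS (0.572).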

How the results depend on the processing

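The mark rep as a replicate block raised the calls with MMS to 2 in sgs1 null, 5 in wild type and 8 on average, against 0, 1 and 5 without it, and left 0 in every strain comparison. The genes gained were NOP56 and RRP4 in sgs1 null, NOP56, NOP6, NOP7 and RRP4 in wild type, and NOP6, RRP4 and RRP6 on average. The deposited scale gave 11 on average, adding NOP12, RRP4, RRP42, RRP9, UTP21 and UTP8. In wild type the count was 0 with no lower limit, without the dimmest 25% of features, with a trended robust variance and with the groups of the contrast alone. Without 1 array the counts ran from 0 to 0 in wild type and from 0 to 2 on average. The member median ran from 0.047 to 0.41 for MMS in sgs1 null and from 0.019 to 0.38 in wild type over those fits. UTP22 turned to 0.19 (untreated strains) and 0.047 (average of strains) with its brightest probe set. In the strain comparison with MMS, the fits without 1 array ran from -0.61 to 0.18 for UTP6 and from -0.39 to 0.020 for NOP16. The cause was not tested. Of the other repeats of single-gene values, 677 kept direction and side of the threshold, 52 lost the call and 6 gained one. No scaling moved the median of all features by over 0.1.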

Other observations

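Besides UTP4 and 2 probe sets of NOP58, NOP53, a factor that brings the exosome's helicase to large-subunit precursors, was high on the same 3 arrays. NOP53 read 615 and 414 in MMS-treated sgs1 null and 358 and 696 in untreated sgs1 null, and 713 and 349.6 in MMS-treated wild type and 472 and 206 in untreated wild type. In RRP14, RRP17 and UTP11 the first array exceeded the second in both MMS groups and in untreated wild type. This was not particular to them, and was also seen in NSA2, RRP1 and RRP3 among others. The second array was higher for 13 of 56 members in MMS-treated sgs1 null, 16 in MMS-treated wild type and 18 in untreated wild type. Between the untreated sgs1 null arrays the second minus first difference was 0.048 for RRP14, -0.0017 for RRP17 and -0.28 for UTP11. RRP14 read 1559.7 and 881 in MMS-treated sgs1 null and 1697 and 1754 in untreated sgs1 null, and 1945 and 798 in MMS-treated wild type and 2021 and 751 in untreated wild type. RRP17 read 813 and 423 in MMS-treated sgs1 null and 488 and 487 in untreated sgs1 null, and 829.6 and 399 in MMS-treated wild type and 572 and 322 in untreated wild type. UTP11 read 1308 and 640.2 in MMS-treated sgs1 null and 878 and 725 in untreated sgs1 null, and 1168 and 511 in MMS-treated wild type and 924 and 533 in untreated wild type. These genes were chosen after their values were seen.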
